A study of Mus musculus with 36 samples.

Results

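Axon injury and regeneration genes are transcripts that neurons are known to switch on after their axon is cut or damaged. Here they were 10 genes, taken by symbol from the 21761 genes listed in each library: the transcription factors Atf3, Jun and Sox11, the growth cone and cytoskeleton genes Gap43, Basp1, Stmn2, Stmn4 and Sprr1a, the neuropeptide gene Gal and the peptidase gene Ecel1. All 10 passed the filter on low counts. They were followed in mouse motor neurons differentiated from embryonic stem cells of the strain Hlxb9-GFP1Tmj, in which the mouse HB9 promoter drives eGFP, or eGFP together with CD2, and which were purified through CD2 on magnetic beads. The neurons were kept in medium conditioned by astrocytes overexpressing G93A mutant SOD1 (mSOD1), by astrocytes overexpressing wild-type SOD1 (wtSOD1) or by non-transgenic astrocytes (NTg), for 1 or 3 days. Each of the 6 groups of medium and day had 6 libraries, which the labels number as experiments 1 to 6, 36 libraries in all. The labels name no SOD1 transgene in the neurons themselves, so that the named difference between groups of a day is the medium. All media held added glucose, antibiotics, GDNF, BDNF and CNTF, and the astrocytes came from newborn spinal cord or cortex, with no label that says which of them served a given library. A time zero control named by the series was not analysed here.

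As background, axon damage activates the kinase DLK, which signals through JNK to phosphorylate Jun. Jun and Atf3, a member of the ATF and CREB family, bind AP-1 and CRE-like elements and take part in switching on regeneration genes, and Sox11 is a further factor induced in injured peripheral neurons. Gap43 and Basp1 are membrane-associated growth cone proteins that organise cortical actin. Stmn2 and Stmn4 are stathmin-family phosphoproteins that bind tubulin and control microtubule growth. Sprr1a, best known as a precursor of the cornified envelope of the skin, is induced in injured sensory neurons and promotes neurite outgrowth. Gal encodes the neuropeptide galanin, which axotomised neurons produce, and Ecel1 encodes a membrane peptidase also named damage-induced neuronal endopeptidase. Several of these genes are also active in young neurons that extend axons without any injury.

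The promoters of 4 of the genes are shown because they hold letters of the AP-1 and ATF type, the kind of element through which Jun and Atf3 act. The windows are the 250 bases before the gene start in RefSeq (GRCm38.p6), read 5′ to 3′ on the strand of the gene, with each match in capitals. RefSeq windows were matched for 7 of the 10 genes.
Atf3, chr1:191183334-191183583, minus strand: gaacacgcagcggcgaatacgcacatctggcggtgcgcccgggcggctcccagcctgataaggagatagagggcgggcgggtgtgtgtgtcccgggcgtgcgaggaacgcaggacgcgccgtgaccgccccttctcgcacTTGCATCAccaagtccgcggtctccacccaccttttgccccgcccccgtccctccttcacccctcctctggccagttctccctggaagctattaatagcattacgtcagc
Jun, chr4:95052223-95052472, minus strand: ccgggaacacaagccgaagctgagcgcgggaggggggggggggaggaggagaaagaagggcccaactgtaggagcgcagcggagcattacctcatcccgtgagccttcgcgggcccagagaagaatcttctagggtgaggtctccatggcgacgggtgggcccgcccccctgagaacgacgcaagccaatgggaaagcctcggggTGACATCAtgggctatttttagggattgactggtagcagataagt
Sox11, chr12:27342719-27342968, minus strand: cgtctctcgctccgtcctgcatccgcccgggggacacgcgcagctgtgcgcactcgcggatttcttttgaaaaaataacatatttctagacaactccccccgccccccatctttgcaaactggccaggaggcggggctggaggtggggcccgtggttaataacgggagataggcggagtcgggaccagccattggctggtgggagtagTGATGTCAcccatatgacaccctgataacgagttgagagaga
Sprr1a, chr3:92485882-92486131, minus strand: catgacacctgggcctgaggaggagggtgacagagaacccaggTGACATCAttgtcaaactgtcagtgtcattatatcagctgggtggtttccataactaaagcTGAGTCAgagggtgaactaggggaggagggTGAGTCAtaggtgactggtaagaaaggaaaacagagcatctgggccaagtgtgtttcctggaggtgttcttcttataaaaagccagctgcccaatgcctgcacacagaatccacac
The search covered TGACGTCA (CRE), TGACTCA (AP-1), TGACATCA (an AP-1-like element known from the Jun promoter) and TGATGCAA (a C/EBP-ATF element), each on both strands, and no 2 matches overlapped. The Sprr1a window held AP-1 letters on the opposite strand at positions -146 and -116, counted from the gene start to the first base of the match, and the AP-1-like element at -207. The Jun window held the AP-1-like element at -45, the Sox11 window held it on the opposite strand at -42, and the Atf3 window held the C/EBP-ATF element on the opposite strand at -110. The windows of Basp1, Gal and Ecel1 held none of these letters. Of 32851 RefSeq mouse promoter windows of this length, 4.46% held AP-1, 2.93% the AP-1-like element, 0.791% the C/EBP-ATF element and 1.55% the CRE. The matches describe letters, and no binding was measured.

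Libraries held 4.39 to 88.9 M reads (median 13.3 M), and a level is given as counts per M reads (CPM), with library sizes scaled by edgeR's TMM method. On day 1 the motor neuron genes Mnx1, Isl1 and Chat averaged 107 ± 13.4, 152 ± 8.20 and 218 ± 20.0 CPM in mSOD1 medium and 112 ± 17.5, 160.0 ± 20.3 and 223 ± 23.8 CPM in NTg medium (SD, n = 6). Markers of other cells were present: in NTg medium the progenitor gene Sox2 averaged 124 ± 17.8 CPM on day 3 and 55.9 ± 7.63 CPM on day 1, the proliferation gene Mki67 279 ± 38.5 and 129.7 ± 18.5 CPM, and the fibroblast collagen gene Col1a1 98.1 ± 13.4 and 49.2 ± 16.5 CPM. The oligodendrocyte gene Mbp averaged 22.9 ± 2.17 and 37.0 ± 9.50 CPM there and the astrocyte gene Gfap 1.02 ± 1.25 and 0.212 ± 0.475 CPM. On day 1 Mbp ran from 30.6 to 55.9 CPM in NTg medium. Of 7 oligodendrocyte lineage markers tested, 2 rose and 2 fell between the days in that medium, with a median log2 difference of -0.08. Day 1 NTg library 6, the shallowest, stood apart with 56.3 CPM over 9 summed microglia markers and 212 CPM over 8 oligodendrocyte markers, where no other of the 36 libraries exceeded 7.53 and 74.4 CPM. Day 1 wtSOD1 library 4 was the deepest. Without both, Sprr1a lost its call between the days in wtSOD1 medium and Atf3 gained a call in 2 comparisons, and values without both libraries are given beside these results and some other differences of the pair. In such bulk samples, fewer cells of a type and less RNA per cell cannot be told apart.

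Per kilobase of exon, the levels of the 10 genes spanned a wide range. On average over the 36 libraries, Gap43 stood highest at 477 CPM per kilobase, before Basp1 at 256, Stmn2 at 188, Stmn4 at 109, Sox11 at 92.6, Jun at 66.6 and Ecel1 at 56.9. Atf3, Gal and Sprr1a were lowest, at 9.22, 3.86 and 0.867 CPM per kilobase. Exon lengths came from GENCODE M21 and not from the authors' annotation. In it, Jun overlaps its antisense gene Junos, Atf3 overlaps Gm24748 on the opposite strand and Gap43 overlaps Mir6540 on the same strand, and since no source states whether counting used the strand, shared reads cannot be assigned.

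**Figure D1:**
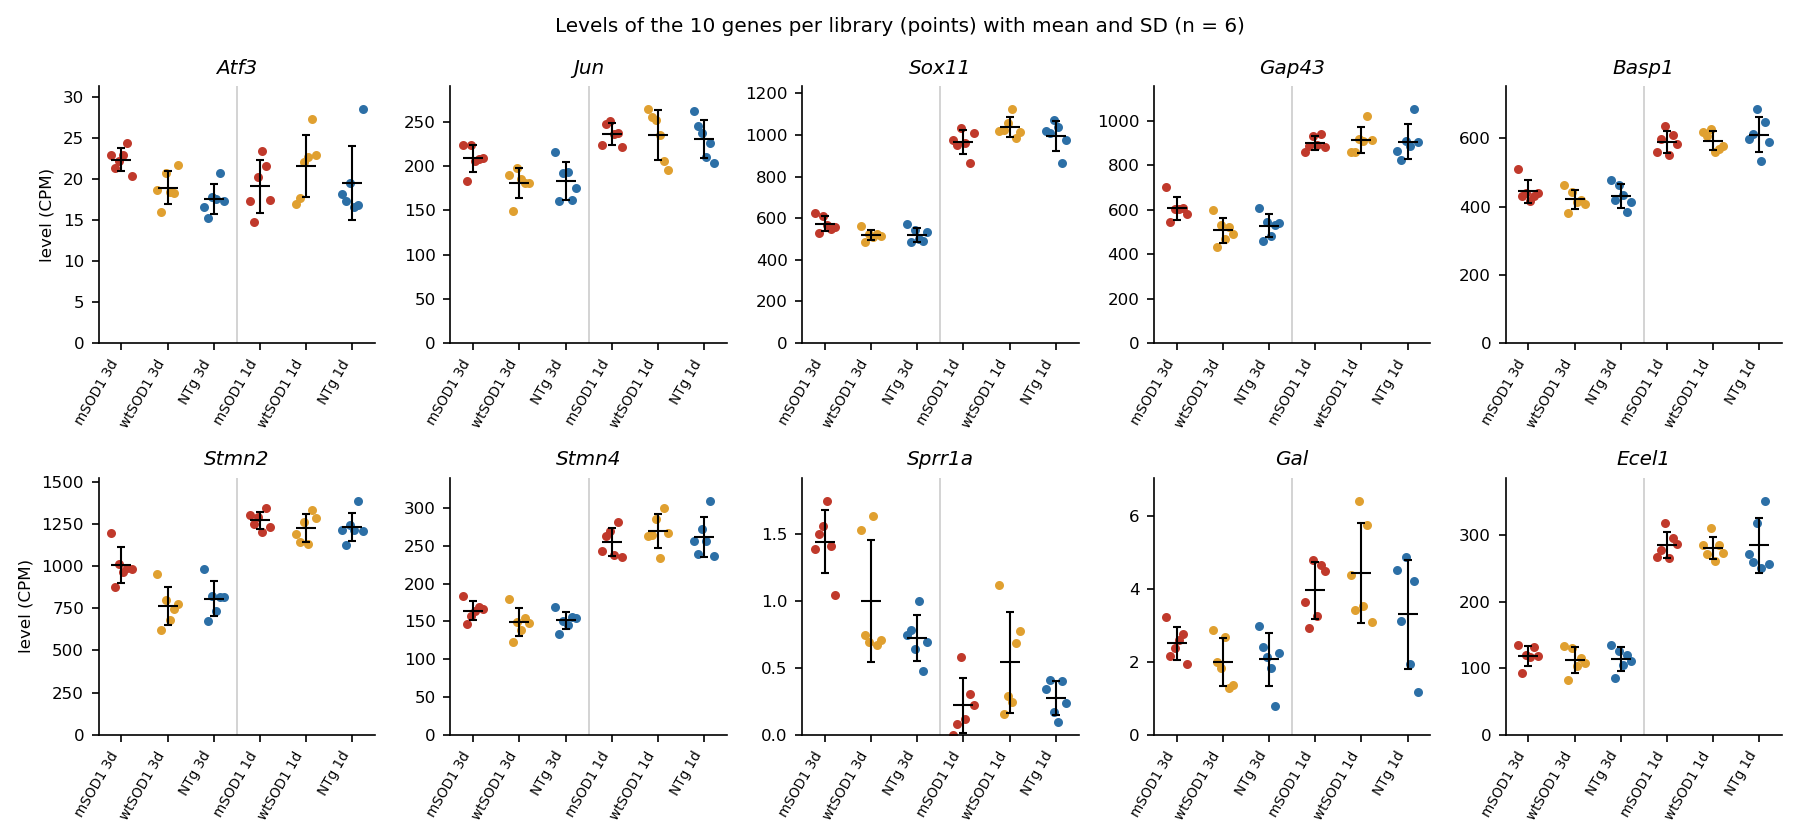
Level of each of the 10 genes in CPM (vertical axis, linear from 0) in each library, by medium and day (horizontal axis), with points for libraries and bars for the mean and SD of 6. Ecel1 lay between 82.3 and 135 CPM on day 3 over the 3 media and between 249.95 and 352 CPM on day 1, and the day 3 points of Sprr1a lie above those of day 1 in mSOD1 and NTg media.

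Between day 3 and day 1, 8 of the 10 genes fell and Sprr1a rose in each of the 3 media, while Atf3 passed the test in none. Sox11, Gap43, Basp1, Stmn2, Stmn4 and Ecel1 fell in 6 of 6 experiments in every medium, and their day 3 and day 1 libraries did not overlap. Sums of neuronal markers give a further scale, shown after the single genes. On it Sox11, Gap43, Basp1, Stmn2 and Stmn4 were not separated in this direction in any medium, and Jun lay higher on day 3. These counts stand beside a broad background: of the 15207 genes tested, 56.5% were called in mSOD1 medium (28.4% higher, 28% lower), 61.8% in wtSOD1 medium (31.1% and 30.7%) and 61.6% in NTg medium (30.8% and 30.8%). Libraries of the days did not overlap for 32%, 38.3% and 38.4% of all genes. The median log2 difference over the 10 genes was -0.49 in mSOD1, -0.77 in wtSOD1 and -0.66 in NTg medium, beside -0.01, -0.01 and 0.00 over all genes tested.

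Among the transcription factors, Sox11 fell in every medium. In mSOD1 medium it had 531 to 624.7 CPM (median 562) on day 3 and 866 to 1032 CPM (median 969) on day 1. In wtSOD1 medium it had 487 to 562 CPM (median 518) and 988 to 1123 CPM (median 1021), and in NTg medium 487 to 572 CPM (median 516) and 865 to 1072 CPM (median 1014). Each day 3 library thus lay below each day 1 library of its medium. Sox11 differed by -0.75 ± 0.05 in mSOD1, -0.996 ± 0.05 in wtSOD1 and -0.94 ± 0.05 in NTg medium (log2, ± SE; edgeR quasi-likelihood F-test, adjusted p = 1.66e-15, 3.39e-19 and 2.08e-18).

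Jun fell by less. It averaged 209 ± 15.1 CPM on day 3 and 236 ± 12.1 CPM on day 1 in mSOD1 medium, 181 ± 16.4 and 235 ± 28.2 CPM in wtSOD1 medium, and 183 ± 21.3 and 231 ± 21.7 CPM in NTg medium (SD, n = 6). Day 3 and day 1 libraries overlapped in all 3 media. The log2 difference was -0.38 ± 0.07 in wtSOD1 and -0.34 ± 0.07 in NTg medium (adjusted p = 3.29e-05 and 0.00017, edgeR), lower on day 3 in 6 of 6 experiments in both. In mSOD1 medium it was -0.18 ± 0.07 (adjusted p = 0.0414, edgeR), lower in 5 of 6. That call ended without experiment 2, 3, 4 or 5 (adjusted p = 0.149, 0.0762, 0.0983 and 0.0892), on total counts without TMM (0.135) and without the filter on low counts (0.0529).

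Atf3 had 20.4 to 24.4 CPM (median 22.6) on day 3 and 14.7 to 23.5 CPM (median 18.8) on day 1 in mSOD1 medium, and 15.3 to 20.8 CPM (median 17.5) and 16.6 to 28.5 CPM (median 17.8) in NTg medium. The days overlapped in both. The log2 difference of day 3 minus day 1 was 0.23 ± 0.11 in mSOD1 medium (adjusted p = 0.0731, edgeR), positive in 5 of 6 experiments. It passed with the experiment as a block (0.0289), on total counts without TMM (0.0358) and without day 1 NTg library 6 and day 1 wtSOD1 library 4 (0.0449). In wtSOD1 medium the difference was -0.19 ± 0.11 and in NTg medium -0.11 ± 0.11 (adjusted p = 0.135 and 0.423). Without these 2 libraries the wtSOD1 difference was -0.17 ± 0.10 (adjusted p = 0.169, edgeR). Day 1 NTg library 6 held the highest Atf3 value of all libraries, 28.5 CPM, and without it and day 1 wtSOD1 library 4 the NTg difference was -0.02 ± 0.10 (adjusted p = 0.905, edgeR).

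The growth cone genes Gap43 and Basp1 both fell. Gap43 had 544 to 700.4 CPM (median 603) on day 3 and 860.3 to 940.3 CPM (median 888) on day 1 in mSOD1 medium, and 461 to 606 CPM (median 536) and 823 to 1050.3 CPM (median 894) in NTg medium. In wtSOD1 medium it averaged 506 ± 57.1 CPM on day 3 and 912 ± 59.8 CPM on day 1 (SD, n = 6). No day 3 library reached its day 1 group. Gap43 differed by -0.57 ± 0.07 in mSOD1, -0.85 ± 0.07 in wtSOD1 and -0.78 ± 0.07 in NTg medium (log2, ± SE; adjusted p = 2.39e-09, 6e-14 and 6.23e-13, edgeR). Basp1 averaged 445 ± 33.0 CPM on day 3 and 589.8 ± 31.8 CPM on day 1 in mSOD1 medium, and its differences were -0.41 ± 0.06, -0.50 ± 0.06 and -0.50 ± 0.06 in the same order of media (adjusted p = 8.83e-08, 8.06e-10 and 5.83e-10).

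Both stathmin genes fell as well. Stmn2 had 877 to 1199.9 CPM (median 987) on day 3 and 1204 to 1344 CPM (median 1273) on day 1 in mSOD1 medium. In wtSOD1 medium it had 622 to 955 CPM (median 761) and 1132 to 1334 CPM (median 1227), and in NTg medium 678 to 982 CPM (median 817) and 1128 to 1389 CPM (median 1216). The days did not overlap in any medium, and in mSOD1 medium they came within a few CPM of each other. Its log2 difference was -0.34 ± 0.08, -0.68 ± 0.08 and -0.61 ± 0.08 in mSOD1, wtSOD1 and NTg media (adjusted p = 0.000322, 1.11e-09 and 1.41e-08, edgeR). Stmn4 averaged 164 ± 12.6 CPM on day 3 and 255 ± 19.1 CPM on day 1 in mSOD1 medium, and differed by -0.64 ± 0.07 there, -0.85 ± 0.07 in wtSOD1 and -0.79 ± 0.07 in NTg medium (adjusted p = 1.64e-09, 7.35e-13 and 5.26e-12).

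Sprr1a was the single gene of the 10 that rose, at trace levels throughout. In mSOD1 medium it had 13 to 27 reads per library on day 3 (1.04 to 1.74 CPM, median 1.45) and 0 to 8 reads on day 1 (0 to 0.581 CPM, median 0.170). In NTg medium it had 6 to 32 reads on day 3 (0.477 to 0.998 CPM) and 1 to 8 reads on day 1 (0.0922 to 0.408 CPM). The days did not overlap in either medium. The log2 difference was 2.61 ± 0.44 in mSOD1 and 1.28 ± 0.44 in NTg medium (adjusted p = 3.19e-06 and 0.011, edgeR), higher in 6 of 6 experiments in both. In wtSOD1 medium the days overlapped, at 0.671 to 1.63 CPM on day 3 and 0.152 to 1.12 CPM on day 1, with a difference of 0.99 ± 0.37 (adjusted p = 0.0206), higher in 4 of 6 experiments. The wtSOD1 call ended without day 1 NTg library 6 and day 1 wtSOD1 library 4 (0.68 ± 0.37, adjusted p = 0.107, edgeR), without experiment 2 (0.052) or 4 (0.50 ± 0.38, 0.267), and with limma on the authors' transformed values (0.0519).

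Ecel1 had the most negative difference of the 10 in each medium. The level averaged 119 ± 15.0 CPM on day 3 and 285 ± 19.7 CPM on day 1 in mSOD1 medium, 112 ± 18.8 and 281 ± 17.0 CPM in wtSOD1 medium, and 114 ± 17.6 and 285 ± 41.1 CPM in NTg medium (SD, n = 6). On the log2 scale Ecel1 differed by -1.26 ± 0.10, -1.33 ± 0.10 and -1.32 ± 0.10 in these media (adjusted p = 1.41e-12, 2.57e-13 and 2.84e-13, edgeR). Gal, with 10 to 129 reads per library on day 3 and 5 to 85 reads on day 1 in NTg medium, averaged 2.06 ± 0.730 CPM and 3.30 ± 1.49 CPM there. Its log2 difference was -0.67 ± 0.25 in mSOD1, -1.13 ± 0.24 in wtSOD1 and -0.71 ± 0.25 in NTg medium (adjusted p = 0.0198, 0.000116 and 0.0117, edgeR). The mSOD1 call for Gal ended without experiment 3 (0.073) or 6 (0.0692), and the NTg call without experiment 3 (0.0723) or 5 (0.0887) and with limma on the transformed values (0.0585).

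**Figure D2:**
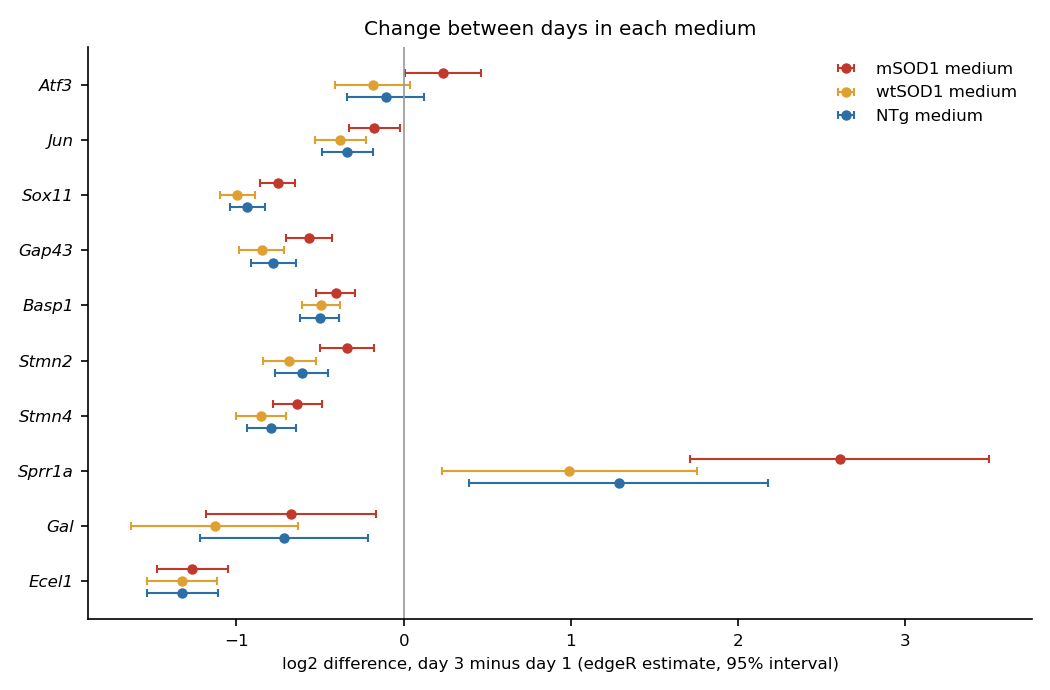
Log2 difference of day 3 minus day 1 (horizontal axis) for each gene, with 1 point per medium and its 95% interval from edgeR. Ecel1 lies at -1.26, -1.33 and -1.32 in mSOD1, wtSOD1 and NTg media, and Sprr1a lies to the right of 0.

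The falls went together with a fall of neuronal markers. All 8 motor neuron markers fell in each medium, with a median log2 difference of -1.27 in mSOD1, -1.51 in wtSOD1 and -1.47 in NTg medium. Of 8 pan-neuronal markers, 6 fell in mSOD1, 7 in wtSOD1 and 7 in NTg medium, and 1, 0 and 1 rose there, with medians of -0.52, -0.90 and -0.92. They summed to 2706 to 3992 CPM on day 3 and 4621 to 5353 CPM on day 1 in mSOD1 medium, and to 2269 to 3409.7 CPM and 4769 to 5453 CPM in NTg medium. All 7 mesenchymal markers tested rose in each medium, and of 8 proliferation markers 6 rose in mSOD1, 8 in wtSOD1 and 8 in NTg medium. Of 7 astrocyte markers tested, 5 rose and 1 fell in each medium, with a median of 1.92 in mSOD1, 2.18 in wtSOD1 and 1.91 in NTg medium. Progenitor markers summed to 3652 to 4498 CPM on day 3 and 2038 to 2758 CPM on day 1 in mSOD1 medium. Their part in the result was not tested.

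The members' levels were also set against the sum of these 8 pan-neuronal markers, a description chosen after the values were seen. Per 1000 CPM of the markers, Gap43 stood at 182 ± 12.2 CPM on day 3 and 187 ± 9.76 CPM on day 1 in mSOD1 medium, and at 184 ± 10.2 and 177 ± 8.54 CPM in NTg medium (SD, n = 6). On this scale the days overlapped in every medium for Gap43, Stmn4, Sox11 and Gal. Stmn2, which fell in CPM, stood at 301 ± 14.4 CPM on day 3 and 264 ± 18.7 CPM on day 1 in mSOD1 medium, and at 282 ± 11.3 and 241 ± 9.31 CPM in NTg medium, where the days did not overlap (269 to 299 and 229.6 to 255 CPM per 1000). Basp1, which also fell in CPM, lay higher on day 3 without overlap in wtSOD1 medium (134 to 182 and 104 to 127 CPM per 1000), with overlap in the others. Jun lay higher on day 3 without overlap, though by a narrow margin in wtSOD1 and NTg media, at 62.8 ± 4.02 and 49.1 ± 2.59 CPM per 1000 in mSOD1 medium and 64.2 ± 7.42 and 45.3 ± 5.61 CPM per 1000 in NTg medium. Atf3 stood at 6.75 ± 0.819 on day 3 and 3.98 ± 0.713 on day 1 in mSOD1 medium, without overlap, and at 6.18 ± 0.765 and 3.82 ± 0.873 in NTg medium, where day 1 library 6 reached into the day 3 range. Ecel1 remained lower on day 3 without overlap, at 35.4 ± 2.04 and 59.1 ± 2.56 CPM per 1000 in mSOD1, 40.0 ± 2.24 and 55.5 ± 3.77 in wtSOD1 and 39.4 ± 1.40 and 55.5 ± 5.49 in NTg medium.

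Set against the sum of the 8 motor neuron markers instead, also chosen after the values were seen, more of the directions turned. Stmn2 and Basp1 lay higher on day 3 without overlap in all 3 media on that scale. Per 1000 CPM of the motor neuron markers, Stmn2 stood at 1058 ± 60.1 CPM on day 3 and 780.4 ± 71.3 CPM on day 1 in mSOD1 medium, and at 982 ± 56.8 and 765 ± 49.0 CPM in NTg medium (SD, n = 6). Basp1 stood at 470.1 ± 46.9 and 361 ± 21.986 CPM in mSOD1 medium and at 529.5 ± 75.4 and 378 ± 18.4 CPM in NTg medium. Gap43 lay higher on day 3 without overlap in mSOD1 medium, at 639 ± 43.4 and 550.3 ± 35.8 CPM per 1000, and with overlap in the other media. The margin in mSOD1 medium was narrow, with a lowest day 3 value of 599.7 and a highest day 1 value of 596.9 CPM per 1000. Ecel1 was lower on day 3 without overlap in all 3 media on this scale too. The sum gives most weight to the most abundant markers. In log2 difference, Ecel1 fell no further in any medium than the median over the single motor neuron markers. That median was -1.27 in mSOD1, -1.51 in wtSOD1 and -1.47 in NTg medium. On the motor neuron scale Jun lay higher on day 3 without overlap in all 3 media, at 220 ± 12.4 and 145 ± 12.3 CPM per 1000 in mSOD1 medium. Sox11 and Stmn4 overlapped between the days in all 3 media. Sox11, Gap43, Basp1, Stmn2 and Stmn4 were lower on day 3 without overlap in CPM, and on neither of these scales in any medium.

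**Figure D3:**
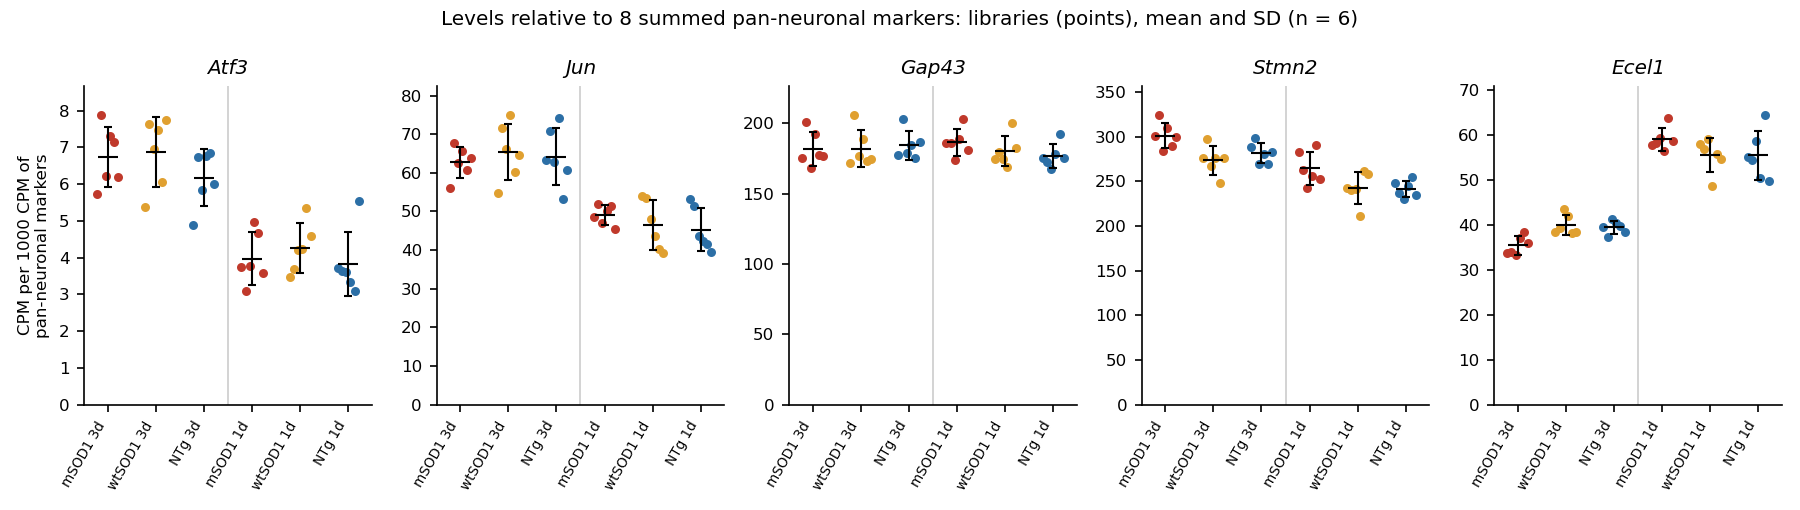
Levels of 5 of the genes in CPM per 1000 CPM of the summed pan-neuronal markers (vertical axis, linear from 0) by medium and day, with points for libraries and bars for the mean and SD of 6. The group means of Gap43 lie between 177 and 187, whereas Ecel1 is lower and Jun higher on day 3.

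The comparison of mSOD1 with NTg medium on day 3 addresses whether medium of mutant astrocytes moves the injury genes. Stmn2 was the single gene of the 10 that passed the test, and it rose, where 2.91% of all genes tested were called and 2.23% were called higher. Atf3, Jun, Sox11, Gap43, Stmn4 and Sprr1a had positive differences in 6 of 6 experiments without passing. The median log2 difference of the 10 genes was 0.20, beside -0.01 over all genes tested. Pan-neuronal markers had a median difference of 0.23, with 1 of 8 called higher, and summed to 2706 to 3992 CPM in mSOD1 and 2269 to 3409.7 CPM in NTg medium. Motor neuron markers had a median of 0.18 with none of 8 called by edgeR, while 2 of 8 proliferation and 3 of 7 mesenchymal markers fell. Their part in the result was not tested.

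Stmn2 had 1199.9, 877, 1014, 969, 992 and 982 CPM in mSOD1 experiments 1 to 6, against 982, 678, 823, 732, 816 and 818 CPM in the NTg ones. The groups overlapped, but within each experiment the mSOD1 library was the higher. The log2 difference was 0.32 ± 0.08, or 1.24-fold (adjusted p = 0.0231, edgeR), and within experiments it ran from 0.26 to 0.40. The call ended when experiment 3, 4, 5 or 6 was left out (adjusted p = 0.141, 0.0763, 0.0573 and 0.106) and when libraries of day 3 alone were fitted (0.0692). It was kept with the experiment as a block, and over the count-based settings the difference ran from 0.29 to 0.32. Set against the pan-neuronal markers, Stmn2 stood at 301 ± 14.4 CPM per 1000 in mSOD1 and 282 ± 11.3 CPM per 1000 in NTg medium (SD, n = 6). On that scale 6 other members had lower means in mSOD1 than in NTg medium, with 62.8 and 64.2 CPM per 1000 in mSOD1 and NTg media for Jun, 172 and 183 for Sox11, 182 and 184 for Gap43, 49.4 and 53.0 for Stmn4, 134 and 152 for Basp1 and 35.4 and 39.4 for Ecel1. Atf3 averaged 6.75 in mSOD1 and 6.18 in NTg medium, Sprr1a, at few reads, 0.437 and 0.259, and Gal 0.746 and 0.728. The libraries of mSOD1 and NTg media overlapped on this scale for all 10 genes. Between same-numbered libraries, Stmn2, Atf3 and Sprr1a were higher in mSOD1 medium in every experiment. Sox11, Basp1, Stmn4 and Ecel1 were lower there in every experiment, and Jun, Gap43 and Gal went both ways.

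Gap43 had 700.4, 544, 603, 603, 608 and 579 CPM in mSOD1 experiments 1 to 6, against 606, 461, 546, 480.2, 531 and 540.2 CPM in the NTg ones. Each mSOD1 library was above its NTg counterpart, by 0.10 to 0.33 on the log2 scale, while the groups overlapped. The difference of 0.20 ± 0.07 did not pass (adjusted p = 0.0852, edgeR). It passed with the experiment as a block (0.0103) and with DESeq2 (0.0462). Basp1 averaged 445 ± 33.0 CPM in mSOD1 and 431 ± 34.5 CPM in NTg medium, a difference of 0.04 ± 0.06 with a 95% interval of -0.07 to 0.16 (adjusted p = 0.723). Stmn4 differed by 0.12 ± 0.07 (adjusted p = 0.387), and passed with a block of experiments within each day (0.0126).

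Of the transcription factors, Atf3 had 22.9, 21.3, 22.2, 22.9, 24.4 and 20.4 CPM in mSOD1 experiments 1 to 6, against 16.7, 15.3, 17.9, 17.6, 20.8 and 17.4 CPM in the NTg ones. The NTg library of experiment 5 alone reached into the mSOD1 range. The log2 difference was 0.35 ± 0.11, or 1.28-fold (adjusted p = 0.0671, edgeR). It passed with the experiment as a block (0.0139), with DESeq2 (0.0356), with libraries of day 3 alone (0.018) and without day 1 NTg library 6 and day 1 wtSOD1 library 4 (0.0363). Jun averaged 209 ± 15.1 CPM in mSOD1 and 183 ± 21.3 CPM in NTg medium, a difference of 0.19 ± 0.07 (adjusted p = 0.144, and 0.0386 with the block). Sox11 averaged 573 ± 36.6 CPM in mSOD1 and 521 ± 33.9 CPM in NTg medium, a difference of 0.14 ± 0.05 (adjusted p = 0.121, and 0.024 with the block). With the block, 5 of the 10 genes passed, Atf3, Jun, Sox11, Gap43 and Stmn2, and the calls over all genes numbered 1511 of 15207, against 443 without it.

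Sprr1a was the single member whose mSOD1 and NTg libraries did not overlap on day 3, a pattern that 2.2% of all genes tested showed. It had 13 to 27 reads (1.04 to 1.74 CPM) in mSOD1 and 6 to 32 reads (0.477 to 0.998 CPM) in NTg libraries. Sprr1a differed by 0.99 ± 0.35 on the log2 scale, with a 95% interval of 0.28 to 1.70 (adjusted p = 0.104, edgeR), and it passed with libraries of day 3 alone (0.0301) and with a block within each day (0.0184). Gal and Ecel1 differed by 0.21 ± 0.26 and 0.06 ± 0.10 (adjusted p = 0.7 and 0.81), with intervals of -0.31 to 0.74 and -0.15 to 0.27.

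Against wtSOD1 medium, which controls for the overexpression of SOD1 itself, mSOD1 medium on day 3 gave 2 calls among the 10 genes, Stmn2 and Gap43, both higher (3.39% of all genes tested were called, 2.49% higher). Stmn2 had 877 to 1199.9 CPM (median 987) in mSOD1 and 622 to 955 CPM (median 761) in wtSOD1 libraries, which overlapped. The log2 difference was 0.40 ± 0.08, or 1.32-fold (adjusted p = 0.00197, edgeR), higher in 6 of 6 experiments. Gap43 averaged 606 ± 51.8 CPM in mSOD1 and 506 ± 57.1 CPM in wtSOD1 medium, a difference of 0.26 ± 0.07 (adjusted p = 0.02), also higher in 6 of 6. The Gap43 call ended without experiment 3 (0.0846), 4 (0.0911) or 6 (0.0922) and with libraries of day 3 alone (0.053). Pan-neuronal markers had a median difference of 0.24, with 2 of 8 called higher, and motor neuron markers a median of 0.22, with 1 of 8 called higher. Per 1000 CPM of the pan-neuronal markers, Stmn2 averaged 301 in mSOD1 and 273 in wtSOD1 medium, and Gap43 181.9 and 182.0. Means of Sprr1a and Gal were also higher in mSOD1 medium on that scale. Those of Atf3, Jun, Sox11, Basp1, Stmn4 and Ecel1 were lower. Per 1000 CPM of the motor neuron markers, Stmn2 averaged 1058 and 1018, and Gap43 639 and 678. The part of the markers in the result was not tested.

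The other 8 genes did not pass against wtSOD1 medium. In CPM, Jun and Sox11 were higher in mSOD1 medium in 6 of 6 experiments, by 0.21 ± 0.07 and 0.14 ± 0.05 on the log2 scale (adjusted p = 0.105 and 0.115, edgeR). Both passed with the experiment as a block (0.0252 and 0.0239). Atf3 differed by 0.24 ± 0.11 (adjusted p = 0.219), with 18.7, 16.0, 20.8, 18.4, 18.3 and 21.8 CPM in wtSOD1 experiments 1 to 6, so that the mSOD1 library was the lower one in experiment 6. Sprr1a was uneven in wtSOD1 medium, at 1.52 and 1.63 CPM in experiments 1 and 4 and at 0.671 to 0.745 CPM in the other 4, and differed by 0.54 ± 0.34 (adjusted p = 0.417). The comparisons of mSOD1 with NTg and with wtSOD1 medium share the mSOD1 libraries.

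**Figure D4:**
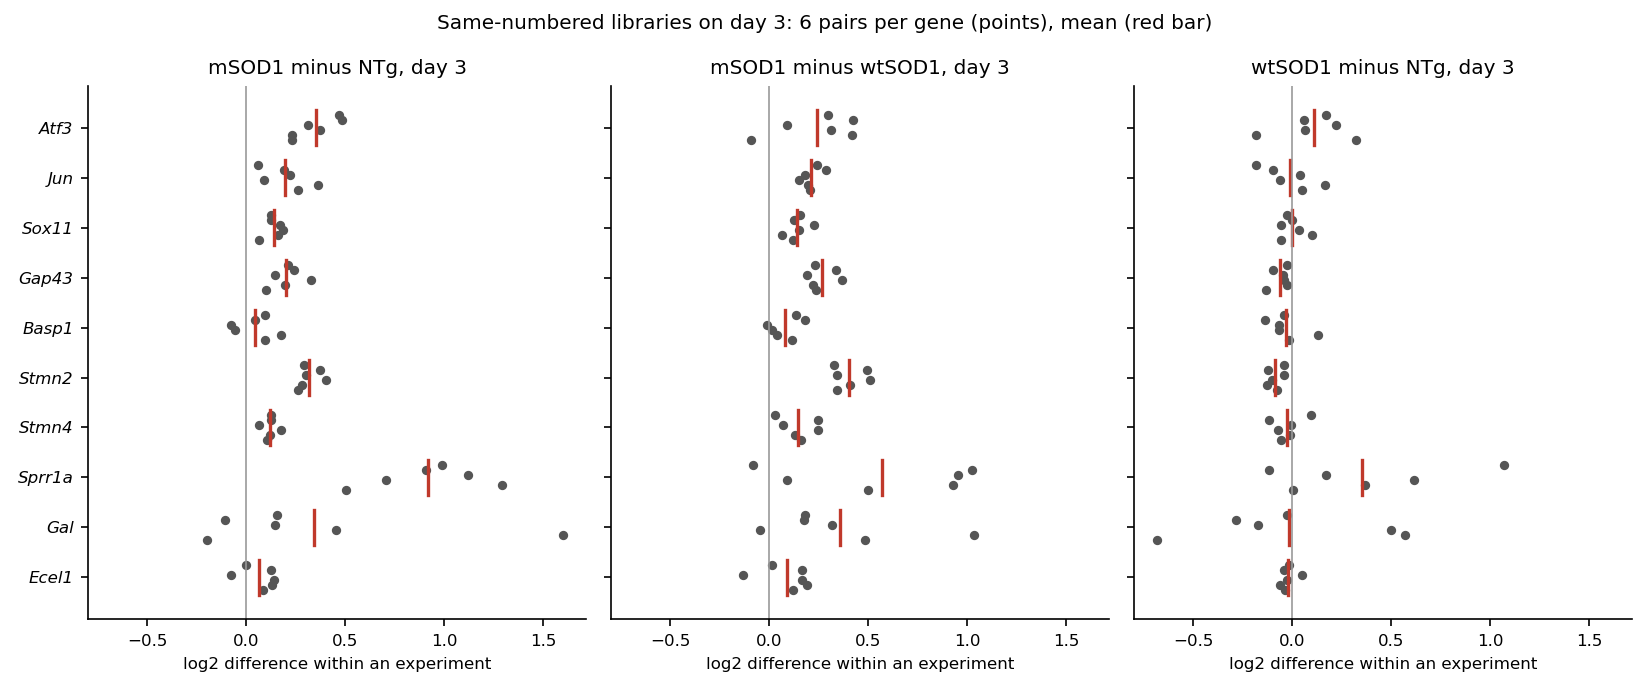
Log2 differences between same-numbered libraries on day 3 (horizontal axis) for each gene, with points for the 6 experiments and a red bar for their mean, in panels for mSOD1 minus NTg, mSOD1 minus wtSOD1 and wtSOD1 minus NTg. Stmn2 points lie at 0.26 to 0.40 for mSOD1 minus NTg, at 0.33 to 0.51 for mSOD1 minus wtSOD1 and below 0 for wtSOD1 minus NTg.

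wtSOD1 medium gave no call among the 10 genes against NTg medium on day 3 or day 1 with edgeR (0.0986% and 0.0263% of all genes were called), none with DESeq2 or with limma on the authors' transformed values, and 0 members had an unadjusted p under 0.05. On day 3 Stmn2 differed by -0.08 ± 0.08 (95% interval -0.24 to 0.08) and Gap43 by -0.06 ± 0.07 (-0.20 to 0.08), both lower in wtSOD1 medium in 6 of 6 experiments. Atf3 differed by 0.11 ± 0.11 on day 3 and 0.19 ± 0.11 on day 1, and by 0.26 ± 0.11 on day 1 without day 1 NTg library 6 and day 1 wtSOD1 library 4. For Sprr1a on day 1, at 2 to 23 reads in wtSOD1 and 1 to 8 reads in NTg libraries, the difference was 0.75 ± 0.46 (95% interval -0.19 to 1.69), and 1.03 ± 0.46 without these 2 libraries.

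On day 1, mSOD1 medium gave no call among the 10 genes with edgeR, DESeq2 or limma, against NTg medium (0.421% of all genes called; 0 members at an unadjusted p under 0.05) or against wtSOD1 medium (1.01% called; 1 member, Sprr1a). Stmn2 averaged 1272 ± 52.4 CPM in mSOD1, 1226 ± 82.4 CPM in wtSOD1 and 1234 ± 85.5 CPM in NTg medium, a log2 difference between mSOD1 and NTg of 0.04 ± 0.08 (95% interval -0.11 to 0.20). Gap43 averaged 898 ± 30.8 CPM in mSOD1 and 905 ± 77.6 CPM in NTg medium (-0.01 ± 0.07; interval -0.15 to 0.12). Atf3 averaged 19.1 ± 3.23 CPM in mSOD1 and 19.5 ± 4.54 CPM in NTg medium (0.01 ± 0.11), and without day 1 NTg library 6 and day 1 wtSOD1 library 4 the difference was 0.10 ± 0.11 (adjusted p = 0.862, edgeR). Sprr1a had 0 to 8 reads in mSOD1 and 2 to 23 reads in wtSOD1 libraries (-1.08 ± 0.49, adjusted p = 0.393), and the difference was -1.38 ± 0.49 without those 2 libraries (adjusted p = 0.309, edgeR). Over the count-based alternatives this Sprr1a difference ran from -1.75 to -0.38, the smallest of them without experiment 1.

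Whether the medium changed the course between the days was tested with interaction terms. None of the 10 genes passed with edgeR for mSOD1 against NTg (0.23% of all genes called), mSOD1 against wtSOD1 (0.592%) or wtSOD1 against NTg (0.0197%). At an unadjusted p under 0.05 there were 4, 6 and 0 members. The shares just given are of adjusted calls, and no share of all genes at the unadjusted threshold was taken. The unadjusted counts, here and above, thus have no background to be read against. Of the members, limma called none, and DESeq2 called 1, Sox11, in mSOD1 against wtSOD1 (adjusted p = 0.0476). For Stmn2 the interaction was 0.27 ± 0.11 in mSOD1 against NTg and 0.34 ± 0.11 in mSOD1 against wtSOD1 medium (adjusted p = 0.257 and 0.119, edgeR), and both passed with the experiment as a block (0.0453 and 0.00772). In mSOD1 against wtSOD1, Sox11 (0.24 ± 0.07, adjusted p = 0.0949) and Gap43 (0.28 ± 0.09, adjusted p = 0.13) also passed with the block (0.0129 and 0.0231). Each of these 4 terms was positive in 6 of 6 experiments.

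The members varied together by experiment on day 3. The library of experiment 1 held the highest value for 8 of the 10 genes in mSOD1, 7 in wtSOD1 and 8 in NTg medium, and that of experiment 2 the lowest for 6, 8 and 7 of them. Stmn2 was at 1199.9, 955 and 982 CPM in experiment 1 and at 877, 622 and 678 CPM in experiment 2 of the mSOD1, wtSOD1 and NTg media. The pan-neuronal sum was 3992, 3467 and 3409.7 CPM in experiment 1 and 2706, 2091 and 2269 CPM in experiment 2. On day 1 other experiments stood out. Experiment 3 held the highest value for 6, 3 and 3 of the genes in mSOD1, wtSOD1 and NTg media and experiment 5 for 3, 4 and 4, and experiment 4 held the lowest for 3, 4 and 4.

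**Figure D5:**
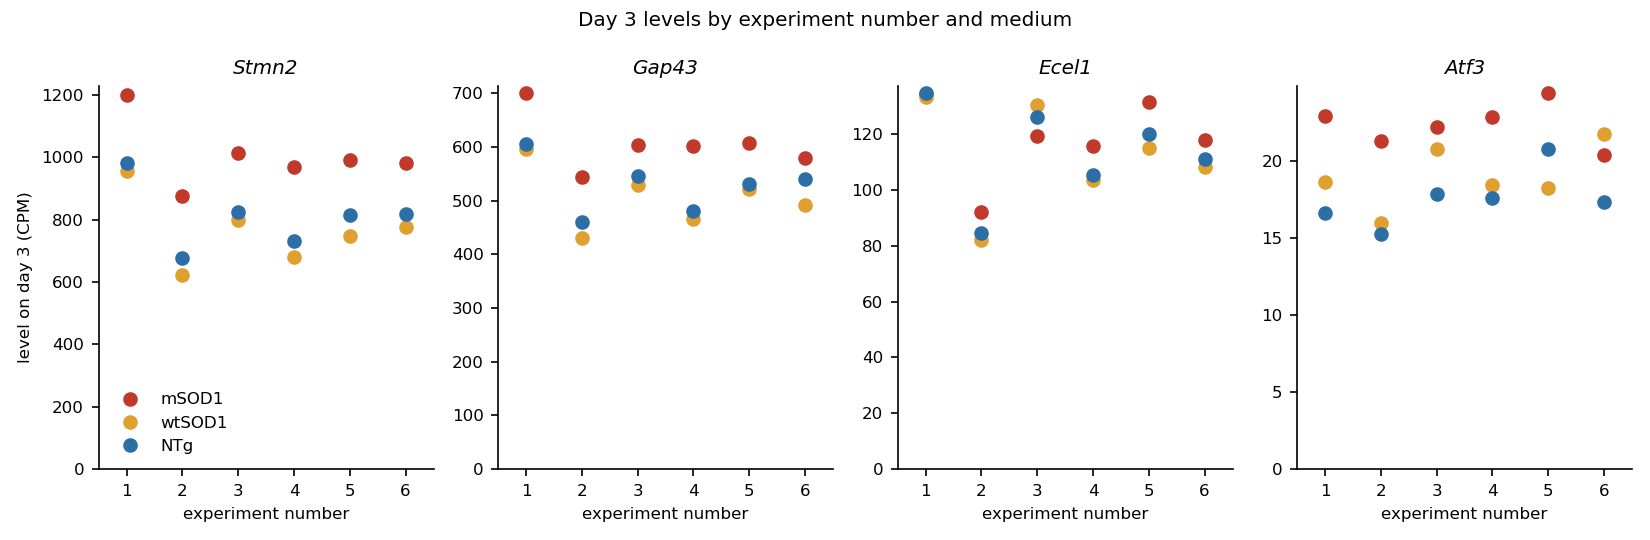
Day 3 level of Stmn2, Gap43, Ecel1 and Atf3 in CPM (vertical axis, linear from 0) by experiment number (horizontal axis), with 1 point per library and medium. The mSOD1 points of Stmn2 and Gap43 lie above the other points of their experiment in all 6 experiments.

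The wider injury programme was followed in 5 lists of further genes, written from general knowledge. On day 3 their counts stand beside the 2.91% of all genes called in mSOD1 against NTg medium (2.23% higher) and the 3.39% called in mSOD1 against wtSOD1 medium (2.49% higher). The median log2 differences against NTg medium were 0.07 for the transcription factors, 0.08 for the DLK-JNK genes, 0.10 for the growth cone genes, 0.21 for the neuropeptide and peptidase genes and 0.16 for the receptors, ligands and enzymes, beside -0.01 over all genes tested. Pan-neuronal and motor neuron markers had medians of 0.23 and 0.18 in the same comparison, and their part in the list values was not tested. Among 25 other injury transcription factors, 1 rose and 1 fell in mSOD1 against NTg medium on day 3. Klf7, a factor that promotes axon growth, averaged 42.0 ± 6.76 CPM in mSOD1 and 31.5 ± 3.35 CPM in NTg medium (0.42 ± 0.10, adjusted p = 0.0152, edgeR). Atf5, a relative of Atf4, averaged 24.7 ± 1.77 CPM in mSOD1 and 32.4 ± 1.95 CPM in NTg medium (-0.40 ± 0.11, adjusted p = 0.049). Against wtSOD1 medium, 2 rose, Klf7 and the Jun partner Fosl2 (83.5 ± 5.04 CPM in mSOD1 and 68.0 ± 5.23 CPM in wtSOD1 medium, adjusted p = 0.00585), and 2 fell, Atf5 and the AP-1 repressor Jdp2 (15.0 ± 1.34 CPM in mSOD1 and 18.7 ± 1.095 CPM in wtSOD1 medium, adjusted p = 0.0203). Of 20 genes of the DLK-JNK pathway and of axon degeneration, 1 rose in both comparisons: Map2k4, a kinase that phosphorylates JNK, averaged 224 ± 5.81 CPM in mSOD1, 198 ± 7.92 CPM in wtSOD1 and 198 ± 10.2 CPM in NTg medium (adjusted p = 0.0108 against NTg and 0.00514 against wtSOD1).

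Of 23 growth cone and cytoskeleton genes besides the members, 2 rose in mSOD1 against NTg medium on day 3: Rtn4, which encodes Nogo (1419.5 ± 85.7 CPM in mSOD1 and 1247 ± 87.9 CPM in NTg medium, adjusted p = 0.0368, edgeR), and the semaphorin receptor gene Plxna4 (81.1 ± 9.51 CPM in mSOD1 and 62.9 ± 5.19 CPM in NTg medium, adjusted p = 0.029). Against wtSOD1 medium 2 rose, Rtn4 and the collapsin response gene Crmp1 (639 ± 62.9 CPM in mSOD1 and 538 ± 69.4 CPM in wtSOD1 medium, adjusted p = 0.0282). Of 11 neuropeptide and peptidase genes, the neurotensin gene Nts rose against wtSOD1 medium (9.90 ± 1.91 CPM in mSOD1 and 6.49 ± 1.497 CPM in wtSOD1 medium, adjusted p = 0.0052). Among 36 injury receptors, ligands and enzymes, 8 rose against NTg medium and 8 against wtSOD1 medium, where 2.23% and 2.49% of all genes tested were called higher, and none fell with edgeR. Reg3b, a secreted lectin made by injured peripheral neurons of the rat, averaged 60.5 ± 12.8 CPM in mSOD1, 24.4 ± 6.13 CPM in wtSOD1 and 30.9 ± 7.12 CPM in NTg medium (adjusted p = 0.00017 against NTg). The oncostatin M receptor gene Osmr averaged 44.4 ± 3.87 CPM, 30.8 ± 2.37 CPM and 30.6 ± 2.75 CPM in the same order (2.72e-06), and Itga7, an integrin subunit gene linked to axon regrowth, 62.4 ± 8.97 CPM, 40.6 ± 10.1 CPM and 44.5 ± 9.15 CPM (0.0344).

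On day 1, when 0.421% of all genes were called in mSOD1 against NTg and 1.01% against wtSOD1 medium, the 5 lists held 2 and 3 calls. Csf1, a cytokine with which injured sensory neurons signal to microglia, averaged 109.8 ± 12.6 CPM in mSOD1 and 75.5 ± 9.24 CPM in NTg medium (0.55 ± 0.08, adjusted p = 1.8e-05, edgeR), and the stress gene Gadd45b 6.30 ± 1.04 CPM and 3.87 ± 1.29 CPM (adjusted p = 0.0409). Against wtSOD1 medium, Fos, the AP-1 partner of Jun, averaged 41.9 ± 5.63 CPM in mSOD1 and 69.6 ± 14.6 CPM in wtSOD1 medium (adjusted p = 1.24e-05), while Jun itself differed by 0.01 ± 0.07 (adjusted p = 0.986). Mapk10, a JNK gene, averaged 101 ± 6.80 CPM in mSOD1 and 119 ± 8.29 CPM in wtSOD1 medium (adjusted p = 0.0264). In NTg medium Fos averaged 50.9 ± 6.25 CPM and Mapk10 109.6 ± 5.38 CPM, between the levels of the other media. Neither was called in mSOD1 against NTg medium on day 1. The remaining call of the 3 was a rise in mSOD1 against wtSOD1 medium, among the receptors, ligands and enzymes.

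Between the days the lists are read against the 61.6% of all genes called in NTg medium, 30.8% higher and 30.8% lower. There, 13 of 25 transcription factors fell and 4 rose, 17 of 20 DLK-JNK genes fell and 2 rose, 15 of 23 growth cone genes fell and 4 rose, and 7 of 11 neuropeptide genes fell. The immediate early gene Junb averaged 11.1 ± 2.86 CPM on day 3 and 32.6 ± 6.91 CPM on day 1 (adjusted p = 7.25e-10, edgeR), and Fos 23.5 ± 1.34 CPM and 50.9 ± 6.25 CPM (adjusted p = 1.21e-11). Of the 36 receptors, ligands and enzymes, 21 rose and 12 fell, with a median log2 difference of 0.30, against -0.32, -0.38, -0.54 and -0.56 for the lists of transcription factors, DLK-JNK, growth cone and neuropeptide genes. Reg3b averaged 30.9 ± 7.12 CPM on day 3 and 4.80 ± 1.06 CPM on day 1 (adjusted p = 1.32e-15), the cytokine gene Lif 12.2 ± 1.81 CPM and 2.85 ± 1.05 CPM (1.19e-12), and Lgals1, which encodes a galectin, 169 ± 19.5 CPM and 42.7 ± 5.73 CPM (2.36e-17). The marker shifts between the days given above moved with these lists too.

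The genes whose pattern over the 36 libraries lay nearest to that of a member were found by the mean absolute difference of centred log2 CPM. For Stmn2 the nearest was Mapt, the gene of the microtubule protein tau, at 0.0572, beside a median of 0.327 over all genes. For Stmn4 it was its paralog Stmn1 at 0.0526, with Gap43 the third nearest at 0.0611. Gap43 was nearest to the G protein subunit gene Gng2 at 0.0509 and the JNK gene Mapk8 at 0.0525. Basp1 was nearest to Marcksl1, a MARCKS-like membrane protein gene, at 0.0517, and Ecel1 to Rftn1, Islr2 and the neuronal intermediate filament gene Ina at 0.0890, 0.0893 and 0.0919. Jun was nearest to Ywhag at 0.0755 and Sox11 to Epb4.1 at 0.0678. The nearest genes of Atf3, Gal and Sprr1a were farther, at 0.139 for Zrsr1, 0.268 for March9 and 0.434 for Ctla2a. These distances share libraries and depth and carry no test.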

How the data were processed

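The deposited files give whole-number read counts per gene and library, per the file headers. A further column, which the file headers call VSE, carries the authors' transformed values on a scale close to log2, used in an alternative only. The submitters' processing notes list TopHat 1.3.3, DESeq and mm9. No source used here states the counter, the annotation or the strandedness. Counts went into edgeR 4.0.16 (R 4.3.3; robust quasi-likelihood F-tests, TMM, filterByExpr by group) as a single model of the 6 group means over the 36 libraries, with 30 residual degrees of freedom, 15207 genes tested and 12 comparisons. P-values were adjusted over all tested genes by Benjamini-Hochberg, and 0.05 was the threshold. Of the genes listed, 1798 had no read and 7 no symbol.

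The members, lists and tests were chosen with earlier results of these data known. Named genes were the 10 members, up to 3 called genes per list, direction and comparison at an average log2 CPM of at least 1, a few markers, and the 3 nearest patterns of each member. Egr2, Vip, Cck, Crh, Il6 and Reg3g were removed by the filter, and Map1b was not matched.

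The labels' experiment number was taken as a shared experiment. Deviations from group means correlated at 0.132 between same-numbered libraries on day 1 and 0.242 on day 3 (over 0.1 in 12 and 16 of 18 pairs), beside -0.0268 and -0.0483 between other numbers. Nothing says that libraries came from separate differentiations, so p-values measure the spread between these libraries. Alternatives were the experiment as a block over both days or within each, DESeq2 1.42.0, its size factors in edgeR, no TMM, no filter, fits of a day alone, limma 3.58.1 on the transformed values, and leaving out libraries.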

Additional observations from a re-analysis of the deposited data

Results flagged for a closer look

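In 4 of the 60 combinations of gene and group, 1 library lay far from the other 5 of its group by a gap test that chance alone passes in about 1 in 20 groups. Atf3 was at 28.5 CPM in day 1 NTg library 6, where the other 5 had 16.6 to 19.5 CPM, and that library also held the raised microglia and oligodendrocyte marker sums, whose part was not tested. Jun was at 149.8 CPM in day 3 wtSOD1 library 2, below the 181 to 198 CPM of the others. Basp1 was at 509.7 CPM in day 3 mSOD1 library 1, above the 416 to 441 CPM of the others. Gal was at 0.796 CPM in day 3 NTg library 5, below the 1.83 to 2.99 CPM of the others.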

How the results depend on the processing

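Of 1670 alternative values for 120 member differences, 1617 kept their side of the threshold, 24 lost a call and 29 gained one. A called difference reversed its direction in 0 of them. Some differences that were not called changed sign and are counted among the 1617. For Atf3 in mSOD1 against NTg medium on day 1, the count-based settings ran from -0.08 to 0.13. For mSOD1 against NTg medium on day 3, where 1 member was called, the count was 5 with the replicate block, 7 with the block within each day, 3 with DESeq2, 2 with libraries of day 3 alone, 2 without day 1 NTg library 6 and day 1 wtSOD1 library 4, and 0 to 1 with each experiment left out, 0 without experiment 3, 4, 5 or 6. For mSOD1 against wtSOD1 on day 3, with 2 called, it was 4 with the replicate block, 5 with the block within each day, 1 with libraries of day 3 alone and 1 to 2 with each experiment left out. The interaction of mSOD1 against NTg, with 0, gave 1 with the replicate block. That of mSOD1 against wtSOD1, with 0, gave 3 with the replicate block, 1 with DESeq2 and 0 to 1 with each experiment left out, 1 without experiment 1. The cause was not tested.

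Over all genes, the 443 calls of mSOD1 against NTg on day 3 became 1511 with the replicate block, 2758 with it within each day, 715 with DESeq2, 288 without the filter and 32 to 388 with each experiment left out. The 516 of mSOD1 against wtSOD1 became 1418, 2366, 783, 429 and 166 to 657. On day 1 the 64, 153 and 4 calls of mSOD1 against NTg, mSOD1 against wtSOD1 and wtSOD1 against NTg became 189, 577 and 56 with the block within each day, and 49 to 70, 48 to 123 and 0 to 4 with each experiment left out. The 15 of wtSOD1 against NTg on day 3 became 56 and 8 to 12. The interaction counts of 35 and 90 became 406 and 599 with the block and 99 and 233 with DESeq2, and 8 to 38 and 17 to 206 with each experiment left out. Low depth limits Sprr1a and Gal, with 0 to 32 and 5 to 292 reads per library.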
